A study of Gallus gallus with 3 samples.

Results

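The forming interphalangeal joint cells are the 118 cells that the deposited annotation places in fine sub-cluster 17 of the HH29 chicken hindlimb, 118 of 6823 cells of that library and of 17628 cells in the whole series. They were taken as annotated, with no further filter, and no expression value was used to choose them here. The series holds single-cell transcriptomes of the developing foot at Hamburger-Hamilton stages HH25, HH29 and HH31, with 1 library per stage (whole autopod at HH25 and tip of digit 4 at HH31, both by droplet sequencing on the 10x platform). The HH29 library, made by Drop-Seq from trypsin-dissociated hindlimb digits 3 and 4 and the interdigit tissue next to them, was run as 3 technical replicates, and unique molecular identifiers (UMIs) let each captured transcript be counted once. The joint cells were set against the early chondrocytes (sub-cluster 15, 370 cells), the late chondrocytes (sub-cluster 3, 472 cells) and all 6705 other cells of the library.

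A synovial joint starts as an interzone, a stripe of flattened, closely packed cells that forms across a continuous cartilage condensation. Interzone cells descend from *SOX9*-positive chondroprogenitors, leave the cartilage programme at least in part, and later give rise to articular cartilage, ligaments and synovium. They are a known source of secreted signals, among them BMP antagonists, activins and TGF-beta ligands, and of enzymes that modify the matrix between the phalanges.

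The joint sub-cluster took 1.73% of the HH29 cells (95% interval 1.43 to 2.07%, Clopper-Pearson, here and below covering counting error only). It held 41, 51 and 26 cells in technical replicates 1, 2 and 3, or 1.73%, 1.80% and 1.61% of each. A joint cell had a median of 2764 UMIs (1265 to 11841) and 1250.5 genes, against 2959 UMIs in the other HH29 cells, and 6 of the 118 cells exceeded 2 times the median UMI number of their replicate. Summed over cells, the joint cells gave 366567 UMIs, against 1141242 for the early chondrocytes, 1842817 for the late chondrocytes and 23741944 for all other HH29 cells. Ribosomal protein transcripts took 20.4% of the UMIs of the joint cells, against 20.6% in early chondrocytes, 17.3% in late chondrocytes and 17.995% in all other cells, and mitochondrial transcripts took 2.84% in the joint cells, against 3.62% in all other cells. All 118 joint cells lay in broad cluster 3, which also held 363 early and 469 late chondrocytes. Of the barcodes, 6 occurred in more than 1 technical replicate, and 1 of these belonged to a joint cell.

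Levels are in CPM, for which a gene's UMIs were pooled over the cells of a population and scaled to 1000000 UMIs of that population, and differences are the log2 ratio of CPM, joint cells over the other population. A gene is called higher or lower where the pooled levels differ at least 2-fold and all 3 technical replicates differ in the same direction, among 7215 genes that averaged at least 10 CPM over the 18 sub-clusters. The joint cells are among these 18, so a gene can pass the filter by its level in them alone, which favours higher calls. Because there is 1 library, and because the sub-cluster was itself defined on these genes, no p-value was computed, and each comparison describes this library. Against all other HH29 cells, 324 genes were called higher (4.49% of those tested) and 722 lower (10.0%). Against the early chondrocytes the calls were 283 higher (3.92%) and 383 lower (5.31%), and against the late chondrocytes 388 higher (5.38%) and 553 lower (7.66%). The counts given below for lists of genes are to be read beside these shares. The counting interval of the ratio lay wholly above 0 for 303, 225 and 326 of the higher calls, and wholly below 0 for 468, 189 and 362 of the lower calls, so many lower calls rest on few UMIs in the joint cells. Among all calls, whatever their interval, 127 genes were higher in all 3 comparisons and 152 lower in all 3. Names were known for 2937 of the 7215 genes, which leaves many of the leading genes of the joint cells without one. They came from the study's marker and module tables for this series, so each named gene was already picked out there. Of the named genes, 144 were called higher and 376 lower against all other cells. Against early chondrocytes these counts were 107 and 143, and against late chondrocytes 133 and 283.

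The transcriptome of the joint cells was nearest to that of the early chondrocytes. Across the 7215 genes, which are not independent replicates, the log2 levels of the joint cells correlated at r = 0.916 with sub-cluster 15, 0.893 with sub-cluster 3 and 0.892 with sub-cluster 14, and less with the remaining 14 sub-clusters. The joint cells had the highest level of all 18 sub-clusters for 573 genes (7.94%), and for 33 of these the level was at least 2 times that of the next sub-cluster. They had the lowest level of the 18 for 672 genes, so a first place alone does not set a gene apart.

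Both markers given for these cells were highest there. *SULF1* (ENSGALG00000039553), a secreted enzyme that trims sulfate groups from heparan sulfate, had 2408, 2562 and 1828 CPM in the joint cells of replicates 1, 2 and 3, against 462, 599 and 506 CPM in early chondrocytes, 574, 464 and 256 CPM in late chondrocytes and 146, 147 and 116 CPM in all other cells. Every replicate of the joint cells was above every replicate of the other populations. The log2 ratio was 4.09 to all other cells (95% interval 3.98 to 4.20), 2.18 to early chondrocytes (2.02 to 2.33) and 2.35 to late chondrocytes (2.22 to 2.49).

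*CD24* (ENSGALG00000035599), a small glycosylated surface protein, had 2379, 2433 and 1545 CPM in the joint cells, against 1141, 959 and 1169 CPM in early chondrocytes, 937, 888 and 731 CPM in late chondrocytes and 270, 250 and 255 CPM in all other cells. Its groups did not overlap either, but it was graded over the cartilage lineage rather than restricted to the joint. Its log2 ratio was 3.12 to all other cells (3.02 to 3.23) and only 1.07 to early chondrocytes (0.94 to 1.20).

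Of the 118 joint cells, 109 held a UMI of *SULF1* (92.4%, 86.0 to 96.5%), 114 one of *CD24*, 106 one of both and 1 neither. Free RNA gives UMIs in cells that do not express a gene, and the skin sub-cluster, with a median of 3241.5 UMIs per cell, served as background for *SULF1*. Of its 184 cells, 11.96% held a UMI of *SULF1* and 41.3% one of *CD24*. For *CD24* the skin share cannot be read as free RNA alone, because the skin ranked 8 among the sub-clusters, at 200 CPM. Sub-clusters 13, 10 and 8 had 63.9, 45.9 and 37.7 CPM of *CD24*. The part of free RNA in the 41.3% was not tested. After each cell was thinned to 1000 UMIs, the shares for *SULF1* were 81.4% in joint cells, 24.1% in early chondrocytes, 26.5% in late chondrocytes and 5.43% in skin. The study puts both markers at the centre of a co-expression module computed over all HH29 cells, the joint cells included. Their levels thus describe the sub-cluster and are no separate evidence for its name. The study took that name from high levels of several known synovial joint markers. It showed *GDF5* among them, which was not analysed here.

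**Figure D1:**
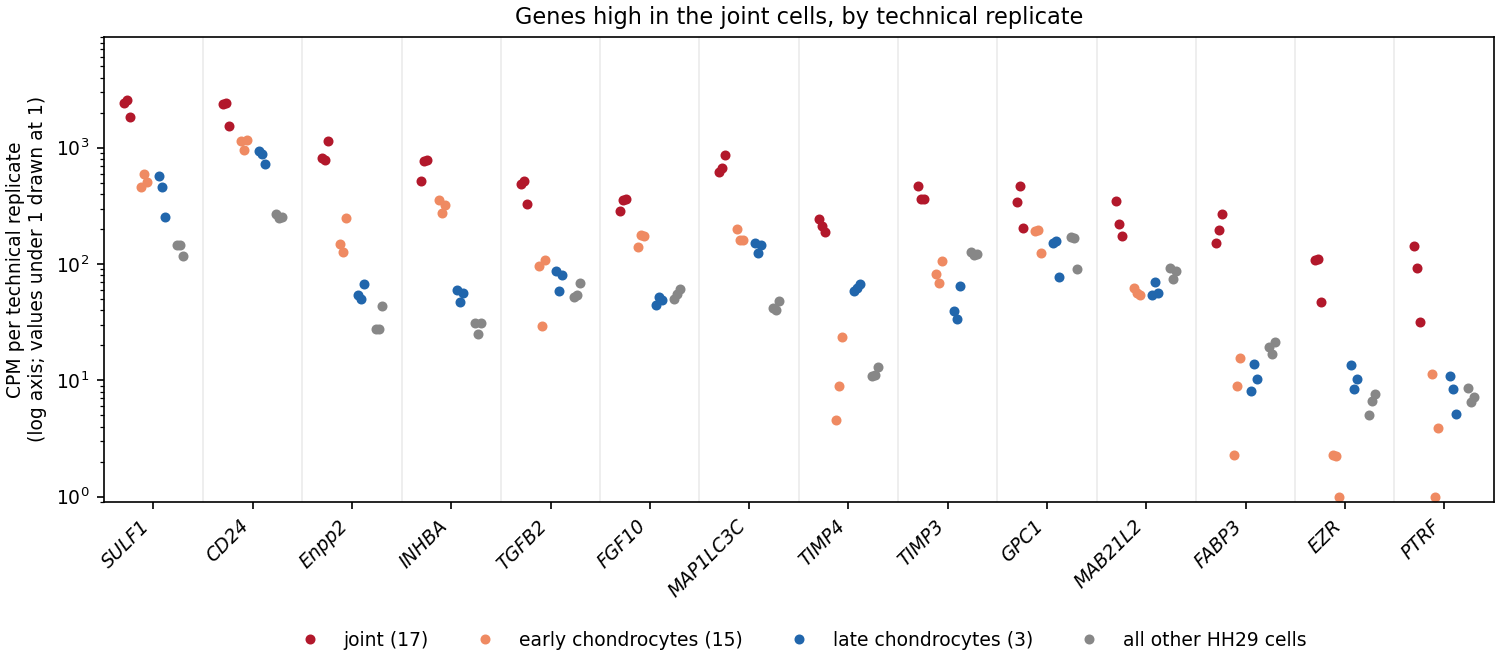
Level of 14 genes in the 3 technical replicates of the joint cells, early chondrocytes, late chondrocytes and all other HH29 cells, in CPM on a log axis (points; values under 1 are drawn at 1). *SULF1* lies between 1828 and 2562 CPM in the joint cells and between 256 and 599 CPM in both chondrocyte sub-clusters.

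Of 5 listed interzone signals with an identifier (*Enpp2*, *INHBA*, *TGFB2*, *FGF10* and *BMP2*), 4 were called higher against all other cells and all 5 against either chondrocyte sub-cluster. Identifiers came from marker and module tables that the study drew from this series. The counts thus describe the cells and are no separate evidence for their name. Their summed level was 2221, 2543 and 2742 CPM in the joint cells of the 3 replicates, against 753, 668 and 865 CPM in early chondrocytes, 274, 259 and 274 CPM in late chondrocytes and 266, 264 and 300 CPM in all other cells.

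*Enpp2* (ENSGALG00000032746), as the table names autotaxin, the enzyme that makes lysophosphatidic acid, had 817, 789 and 1135 CPM in the joint cells. Early chondrocytes had 149, 127 and 249 CPM, late chondrocytes 54.2, 50.2 and 67.2 CPM and all other cells 27.4, 27.8 and 43.9 CPM. The groups were far apart in each replicate, with a log2 ratio of 4.78 to all other cells (4.58 to 4.97), 2.399 to early chondrocytes (2.13 to 2.67) and 3.96 to late chondrocytes (3.63 to 4.29). Next to the joint cells came sub-clusters 15 and 14, at 163 and 156 CPM, whose intervals overlapped. A UMI of *Enpp2* was found in 90 of the 118 joint cells (76.3%), against 28.1% of early chondrocytes, 13.1% of late chondrocytes and 2.72% of skin cells, and after thinning in 49.2%, 15.4%, 4.87% and 1.09%.

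*INHBA* (ENSGALG00000034616), the activin beta A subunit, had 516, 776 and 788 CPM in the joint cells, against 352, 273 and 319 CPM in early chondrocytes, 59.6, 47.4 and 56.8 CPM in late chondrocytes and 31.4, 25.3 and 31.4 CPM in all other cells. Joint cells and early chondrocytes thus shared a high level, the joint cells being above by a log2 ratio of 1.11 (0.88 to 1.35), while late chondrocytes were low (log2 ratio 3.65, 3.31 to 4.00). No sub-cluster other than the joint cells and the early chondrocytes exceeded 54.3 CPM.

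*TGFB2* (ENSGALG00000009612), a TGF-beta ligand, showed another order. It had 487, 520 and 331 CPM in the joint cells, against 96.1, 29.1 and 109 CPM in early chondrocytes, 86.7, 58.5 and 80.1 CPM in late chondrocytes and 51.6, 54.2 and 68.3 CPM in all other cells. Here early chondrocytes were as low as late ones, with log2 ratios of 2.71 (2.32 to 3.10) and 2.67 (2.34 to 3.01), and the next highest sub-clusters were muscle (11) at 225 CPM and sub-cluster 4 at 161 CPM. Of the joint cells, 88 held a UMI of *TGFB2* or *INHBA* and 47 of both.

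*FGF10* (ENSGALG00000014872), a growth factor known for limb outgrowth, had 287, 355 and 362 CPM in the joint cells, against 140, 177 and 175 CPM in early chondrocytes, 44.7, 51.6 and 49.1 CPM in late chondrocytes and 49.6, 55.7 and 60.9 CPM in all other cells. Early chondrocytes lay between the joint cells and the late chondrocytes, which were no higher than all other cells. Unlike *INHBA*, it was also found in interdigit sub-clusters 12 and 6, at 129 and 100 CPM. *BMP2*, at 112 CPM in the joint cells, was called higher against early chondrocytes (33.3 CPM, log2 ratio 1.75) and late chondrocytes (35.8 CPM, log2 ratio 1.64), but not against all other cells (101 CPM), and 4 other sub-clusters had more.

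The BMP antagonist *NOG* did not reach the level set for testing. Its 19 UMIs in 14 joint cells gave 51.8 CPM, against 22.8 CPM in early chondrocytes, 39.6 CPM in late chondrocytes and 6.40 CPM in all other cells, so the joint cells stood first of 18 with an interval (31.2 to 80.9 CPM) that overlapped that of the late chondrocytes (31.1 to 49.8 CPM). Only 5 of 11 listed interzone signals and 1 of 5 antagonists had an identifier in the sources used here. The others were not analysed here, so that established markers of the forming joint are represented only in part.

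Of 3 receptors tested, 2 were called higher and 1 lower against all other cells, and none against a chondrocyte sub-cluster. The lower one, *TGFBR2*, had 1 UMI in the joint cells. *BMPR1B*, the type I BMP receptor of condensing cartilage, had 180 CPM in the joint cells, against 173 CPM in early chondrocytes, 124 CPM in late chondrocytes and 31.8 CPM in all other cells. The mechanically gated channel *PIEZO2* had 246 CPM in joint cells, against 216 CPM in early chondrocytes, 141 CPM in late chondrocytes and 67.1 CPM in all other cells. Both were thus high over the whole cartilage lineage.

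Of the 7 interzone transcription factors tested, 3 were called higher against all other cells and 1 lower, 2 higher against late chondrocytes and none against early chondrocytes. *IRX1*, an Iroquois factor of digit condensations, had 287, 330 and 284 CPM in the joint cells, against 238, 228 and 117 CPM in early chondrocytes and 111, 124 and 54.2 CPM in late chondrocytes. *JUN*, an AP-1 subunit, differed widely between replicates, at 1082, 605 and 394 CPM in the joint cells, against 311, 290 and 143 CPM in all other cells of the same replicates. *ERG*, a factor of articular chondrocytes, had 20 UMIs in the joint cells (54.6 CPM, against 72.7 CPM in early and 45.04 CPM in late chondrocytes) and was not called in any comparison.

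Over the whole interzone list, 19 of 36 genes could be tested, and 12 were called higher and 2 lower against all other cells, 7 higher and 0 lower against early chondrocytes, and 9 higher and 0 lower against late chondrocytes. The median log2 ratio of the list was 1.503, 0.46 and 1.46 in the same 3 comparisons, beside medians of -0.11, -0.03 and -0.04 over all genes tested. Summed, the list had 9027 CPM in the joint cells, the highest of the 18 sub-clusters, against 5217 CPM in early chondrocytes, 3375 CPM in late chondrocytes and 2078 CPM in all other cells. *SULF1*, which marks the sub-cluster, is itself a member of the list, and all tested members were named through the study's own marker and module tables. *SOX9* is a member too, at 1416 CPM in the joint cells, 1570 CPM in early chondrocytes and 1199 CPM in late chondrocytes. Like *BMPR1B* and *PIEZO2*, it was high over the whole cartilage lineage. The list is thus not specific to the joint.

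**Figure D2:**
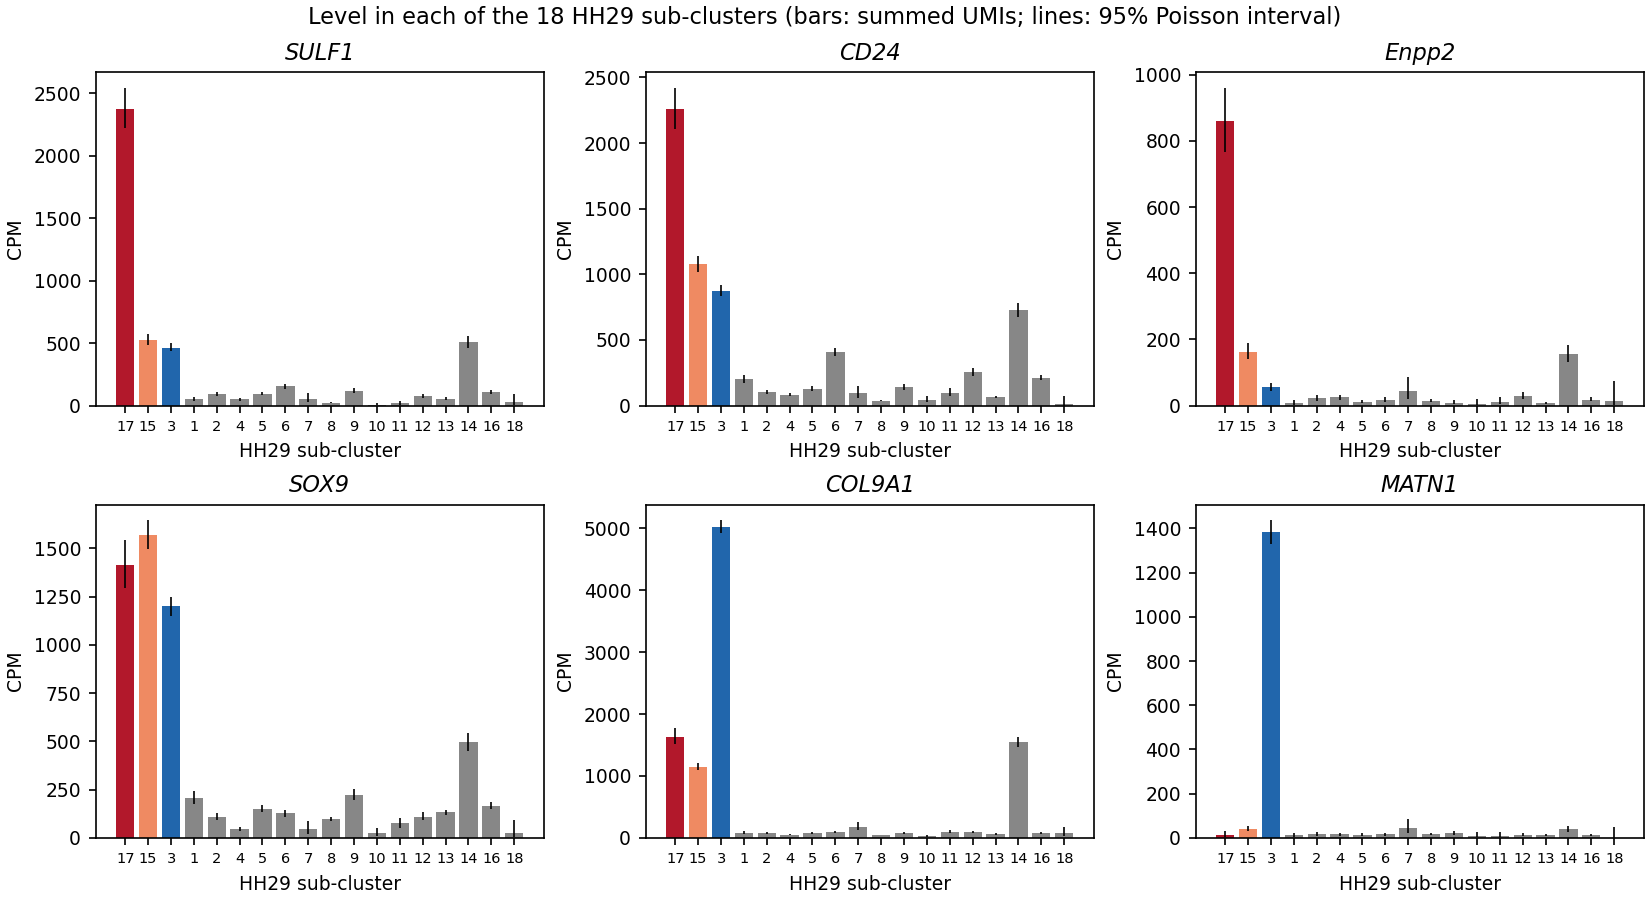
Level of 6 genes in CPM (linear axes) in each of the 18 HH29 sub-clusters, with the joint cells (17), early chondrocytes (15) and late chondrocytes (3) drawn first; lines are 95% Poisson intervals of the summed UMIs. *SULF1*, *CD24* and *Enpp2* are highest in the joint cells, *SOX9* is high in all 3 sub-clusters, and *MATN1* is high in late chondrocytes alone.

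The master regulators of cartilage were at a high level in the joint cells. *SOX9* (ENSGALG00000004386) had 1275, 1583 and 1292 CPM in the joint cells, against 1434, 1605 and 1741 CPM in early chondrocytes, 1195, 1196 and 1212 CPM in late chondrocytes and 271, 295 and 318 CPM in all other cells. Joint cells were between the chondrocyte sub-clusters, with log2 ratios of -0.15 (-0.29 to -0.01) and 0.24 (0.10 to 0.38). Its partners *SOX5* and *SOX6* were highest of all sub-clusters in the joint cells, at 529 and 235 CPM, against 359 and 126 CPM in early chondrocytes and 357 and 179 CPM in late chondrocytes. For *SOX6* the interval of the joint cells (188 to 290 CPM) overlapped that of the late chondrocytes (160 to 199 CPM), and neither gene was called against chondrocytes.

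Of other factors of chondrocyte maturation, 3 were low relative to the chondrocytes. *RUNX2*, which drives hypertrophy, had 30.01 CPM in joint cells, against 83.2 CPM in early chondrocytes and 96.6 CPM in late chondrocytes. *SOX8* had 27.3 CPM in joint cells, against 137 CPM in early chondrocytes and 106 CPM in late chondrocytes. *NKX3-2*, which restrains maturation, had 7 UMIs and 19.1 CPM in the joint cells, against 53.5 CPM in early and 117 CPM in late chondrocytes, with 0 UMIs in replicate 3 of the joint cells. These 3 were called lower in both comparisons with chondrocytes. To all other cells, *NKX3-2* had a log2 ratio of only -0.12. Of all 12 chondrocyte regulators tested, 7 were called higher and 1 lower against all other cells, 0 higher and 3 lower against early chondrocytes, and 0 higher and 6 lower against late chondrocytes. *FGFR3*, the receptor that slows chondrocyte growth, had 155 CPM in the joint cells and 358 CPM in late chondrocytes (log2 ratio -1.20, -1.62 to -0.81).

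The products of this programme, the cartilage matrix genes, separated the joint cells from the late chondrocytes. Of 16 tested, 13 were called lower and 0 higher against late chondrocytes, with a median log2 ratio of -1.81. Against early chondrocytes, 1 was called higher, 1 lower, and the median was -0.12. Against all other cells, 9 were higher and 3 lower. Their sum was 7352, 7068 and 6005 CPM in the joint cells, against 5259, 5897 and 4573 CPM in early chondrocytes, 23884, 23523 and 24309 CPM in late chondrocytes and 3350, 3499 and 3438 CPM in all other cells. In each replicate the sum in the joint cells was above that in the early chondrocytes and far under that in the late ones. Most of the excess over the early chondrocytes came from *PTN* (below), and in replicate 2 the excess of *PTN* was larger than that of the sum. The rest of the list was thus not above the early chondrocytes in every replicate.

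Among the collagens, *COL9A1* (ENSGALG00000015970), a chain of the fibril-associated collagen IX, had 1576, 1755 and 1466 CPM in the joint cells, against 1228, 1265 and 814 CPM in early chondrocytes and 4916, 5388 and 4562 CPM in late chondrocytes. The joint cells were second of 18, at a level close to that of sub-cluster 14 (1554 CPM). *COL9A2*, the partner chain, was less reduced, at 259 CPM in joint cells, against 385 CPM in late chondrocytes (log2 ratio -0.57, -0.90 to -0.26), and *COL11A1* more, at 256 CPM in joint cells, against 1675 CPM in late chondrocytes (log2 ratio -2.71). *COL2A1*, the main cartilage collagen, was low throughout this library. Its highest level was 264 CPM in the late chondrocytes, and the joint cells had 46.4 CPM from 17 UMIs.

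The lowest ratios of the list were those of secreted matrix proteins of mature cartilage. *MATN1* (ENSGALG00000043185), or matrilin-1, had 7.17, 12.2 and 31.5 CPM in the joint cells (5 UMIs in all), against 36.6, 53.7 and 19.5 CPM in early chondrocytes and 1485, 1291 and 1354 CPM in late chondrocytes. The log2 ratio to late chondrocytes was -6.66 (-8.29 to -5.44). The proteoglycan epiphycan (*EPYC*) had 30.01 CPM in joint cells and 992 CPM in late chondrocytes (log2 ratio -5.05, -6.05 to -4.20), and *CYTL1*, a cytokine-like protein of cartilage, had 112 CPM in joint cells and 3271 CPM in late chondrocytes (log2 ratio -4.87). *CYTL1* was also called lower against early chondrocytes (248 CPM). Aggrecan (*ACAN*) had 139 CPM in joint cells, against 156 CPM in early chondrocytes and 492 CPM in late chondrocytes. Outside this list, *CTGF*, a matricellular growth factor of chondrocytes, had 24.6 CPM in joint cells, against 39.4 CPM in early and 539 CPM in late chondrocytes (log2 ratio -4.46).

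Pleiotrophin (*PTN*), a heparin-binding growth factor of cartilage, was the exception. It had 2408, 2201 and 1954 CPM in the joint cells, against 753, 740 and 834 CPM in early chondrocytes and 2464, 2252 and 2263 CPM in late chondrocytes. Joint cells and late chondrocytes could hardly be told apart in any replicate (log2 ratio -0.06, -0.17 to 0.04), and the early chondrocytes lay well under both.

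**Figure D3:**
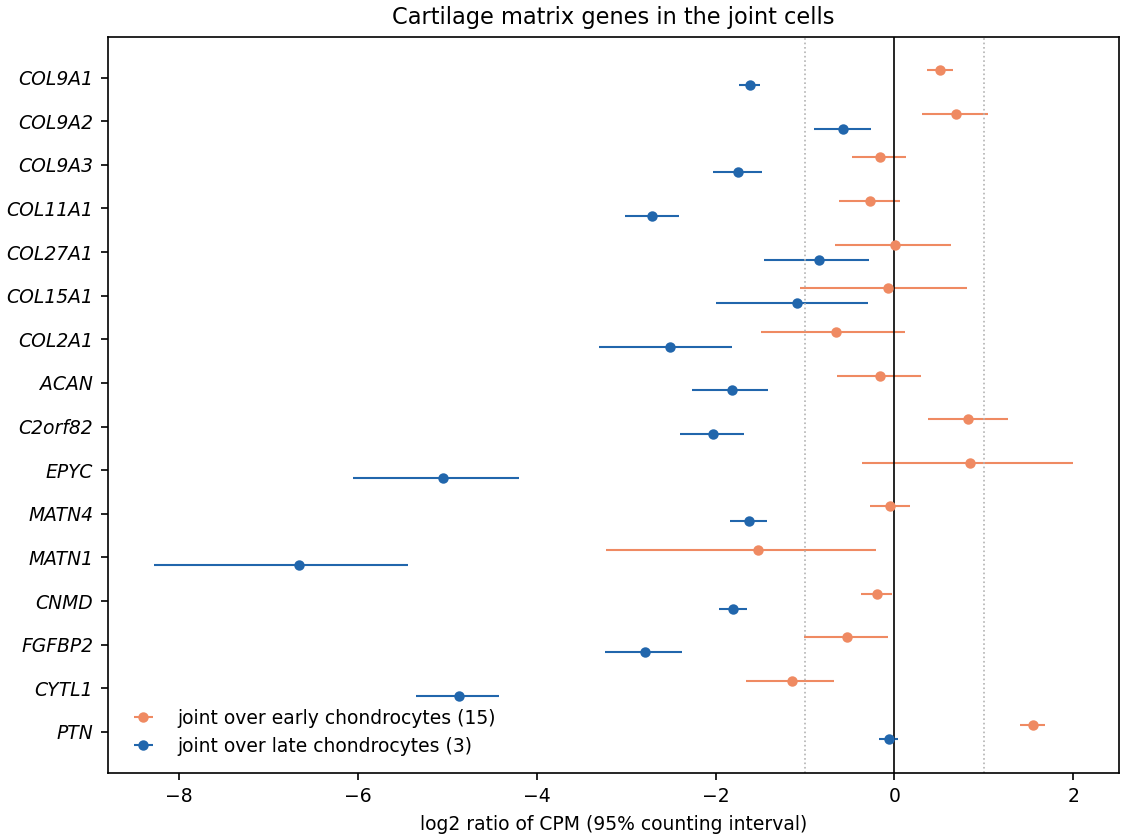
Log2 ratio of CPM of the 16 tested cartilage matrix genes, joint cells over early chondrocytes (orange) and over late chondrocytes (blue), with 95% counting intervals; dotted lines mark 2-fold. Against late chondrocytes 13 genes are called lower, from *COL15A1* at -1.09 to *MATN1* at -6.66, while against early chondrocytes *PTN* (1.55) is called higher and *CYTL1* (-1.15) lower, and *MATN1* (-1.53) lies past 2-fold but is not called because replicate 3 ran the other way.

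Of 6 matrix remodelling genes tested, 2 were called higher and 1 lower against all other cells, beside 4.49% and 10.0% of all genes tested. Their median log2 ratio was -0.02, and their sum in the joint cells ranked 7 of 18. *TIMP4* (ENSGALG00000004969), an inhibitor of matrix metalloproteinases, had 244, 214 and 189 CPM in the joint cells, against 4.57, 8.94 and 23.4 CPM in early chondrocytes, 58.2, 62.7 and 67.2 CPM in late chondrocytes and 10.97, 11.1 and 13.1 CPM in all other cells. No replicate of another population came near the joint cells, and early chondrocytes were the lower of the chondrocyte pair (log2 ratio 4.39, 3.51 to 5.40, against 1.84, 1.41 to 2.26, to late chondrocytes). It came from few cells: 30 of 118 held a UMI, and 26 of these also one of *Enpp2*. *TIMP3*, another inhibitor, had 401 CPM in joint cells, against 82.4 CPM in early chondrocytes, 42.3 CPM in late chondrocytes and 123.2 CPM in all other cells.

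The metalloproteinase *MMP2* was at its lowest of the 18 sub-clusters in the joint cells, at 71.7, 30.6 and 110 CPM, against 121, 183 and 187 CPM in early chondrocytes, 203, 205 and 189 CPM in late chondrocytes and 323, 376 and 365 CPM in all other cells. It was called lower in all 3 comparisons, with a log2 ratio of -2.55 to all other cells (-3.23 to -1.96).

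Heparan sulfate genes, 10 tested, gave 3 higher and 4 lower calls against all other cells, beside 4.49% and 10.0% of all genes tested. Their sum was the highest of the 18 sub-clusters, 3405 CPM in joint cells, against 1236 CPM in early chondrocytes, 1373 CPM in late chondrocytes and 978 CPM in all other cells, of which *SULF1* alone made up 2376 CPM in the joint cells. The core protein glypican-1 (*GPC1*) was called higher in all 3 comparisons (376 CPM in joint cells, against 179 CPM in early chondrocytes, 139 CPM in late chondrocytes and 151 CPM in all other cells). Another glypican, *GPC3*, had 6 UMIs and was lower than in all other cells (16.4 CPM in joint cells, against 77.3 CPM). Of the hyaluronan genes, *HAS2*, a synthase linked to joint cavitation, was not called (30.01 CPM in joint cells, against 42.1 CPM in early and 31.5 CPM in late chondrocytes), and *UGDH*, which supplies its precursor, was called higher against early chondrocytes only (226 CPM in joint cells, against 111 CPM). Versican (*VCAN*) had 597 CPM in joint cells and 638 CPM in early chondrocytes. Of 15 fibrous matrix genes tested, 2 were called higher and 4 lower against all other cells (over all genes 4.49% and 10.0%), with a median log2 ratio of -0.19. Their sum in the joint cells ranked 8 of 18. *COL3A1*, a fibrillar collagen of soft connective tissue, was called higher in all 3 comparisons. It had 180 CPM in joint cells, against 66.6 CPM in early chondrocytes, 54.3 CPM in late chondrocytes and 77.1 CPM in all other cells. The skin came close, at 172 CPM. *COL1A2* went the other way and was called lower against all other cells (270 CPM in joint cells, against 640 CPM).

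The rule for the largest ratios added genes outside the lists. *MAP1LC3C* (ENSGALG00000010741), a relative of the autophagy protein LC3, had 616, 673 and 867 CPM in the joint cells, against 201, 161 and 160 CPM in early chondrocytes, 150, 125.4 and 145 CPM in late chondrocytes and 41.6, 40.1 and 47.96 CPM in all other cells. *EZR* (ezrin, a linker of membrane and actin), *PTRF* (a caveolar coat protein) and *FABP3* (a fatty acid binding protein) had 98.2, 101 and 191 CPM in the joint cells, against 1.75, 5.26 and 7.89 CPM in early chondrocytes, 10.9, 8.68 and 10.9 CPM in late chondrocytes and 6.23, 7.497 and 18.9 CPM in all other cells. Their 36, 37 and 70 UMIs came from 22, 21 and 35 joint cells. For *EZR* and *FABP3* the leukocyte sub-cluster (18) was higher, at 118 and 1218 CPM. The whole leukocyte marker list of 4 genes had 13.6 CPM in the joint cells, against 30.4 CPM in all other cells, with *GILT* and *LCP1* at 0 UMIs and *CD74* at 4 UMIs (10.9 CPM in joint cells, against 10.5 CPM in all other cells), and its part in both levels was not tested.

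Of the 15 genes with the largest ratio to all other cells, 8 carry no name. The first was ENSGALG00000017308, at 387 CPM in the joint cells, against 48.2 CPM in early chondrocytes, 7.60 CPM in late chondrocytes and 5.73 CPM in all other cells (log2 ratio 6.08, 5.73 to 6.43), with a UMI in 69 joint cells. Its level in the joint cells was by itself enough to pass the filter on level. The most abundant was ENSGALG00000046616, which alone took 2.78% of all UMIs of the joint cells, more than any other tested gene. It had 21676, 33638 and 26242 CPM in the joint cells, against 6078, 4793 and 7358 CPM in early chondrocytes, 990, 1399 and 1137 CPM in late chondrocytes and 714, 694 and 873 CPM in all other cells. It was thus graded over the lineage like *INHBA*, and was found in 112 of 118 joint cells and in 30.7% of all others.

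Factors of the undifferentiated limb mesenchyme were low. Of 35 limb patterning factors tested, 2 were called higher and 17 lower against all other cells, with a median log2 ratio of -1.08, and 3 higher and 6 lower against early chondrocytes. Over all genes tested the shares were 4.49% and 10.0% against all other cells, and 3.92% and 5.31% against early chondrocytes. The 2 higher calls are thus near the share over all genes. Against late chondrocytes the balance was the other way, with 8 higher and 3 lower, beside 5.38% and 7.66% of all genes tested. *PRRX1*, a marker of limb mesenchyme, had 236, 128 and 205 CPM in joint cells, against 640, 463 and 397 CPM in early chondrocytes, 186, 188 and 150 CPM in late chondrocytes and 922, 776 and 684 CPM in all other cells, and was in joint cells at about the level of the late chondrocytes. *MSX1*, *TWIST2* and *DLX5* were likewise lower than in all other cells, at 169, 21.8 and 10.9 CPM in joint cells, against 725, 103 and 60.0 CPM. The 2 factors called higher were *IRX1*, which the interzone list holds too, and *MAB21L2*, called higher in all 3 comparisons, with 262 CPM in joint cells, against 57.8 CPM in early chondrocytes, 60.8 CPM in late chondrocytes and 84.5 CPM in all other cells. *GLI2*, a mediator of hedgehog signals, had 98.2 CPM in joint cells, the highest of the 18 sub-clusters, against 63.1 CPM in early chondrocytes, 21.2 CPM in late chondrocytes and 36.3 CPM in all other cells. None of the 6 HOX genes tested was called against all other cells or early chondrocytes, and *HOXA13*, *HOXD11* and *HOXD12* were called higher against late chondrocytes (log2 ratios 1.57, 1.01 and 1.06).

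Of 14 BMP pathway genes tested, 3 were called higher and 4 lower against all other cells, beside 4.49% and 10.0% of all genes tested. The 3 were the activin subunit *INHBA*, the receptor *BMPR1B* and the antagonist *CHRDL1*, so no BMP ligand was among them. *INHBA* and *BMPR1B* are counted in the interzone list too. *Id1* and *ID2*, known transcriptional targets of BMP signalling, were called lower in all 3 comparisons. *Id1* had 294, 251 and 441 CPM in joint cells, against 1146, 841 and 982 CPM in early chondrocytes, 1143, 1171 and 1168 CPM in late chondrocytes and 914, 853 and 1122 CPM in all other cells. *ID2* had 202 CPM in joint cells, against 455 CPM in early chondrocytes, 780 CPM in late chondrocytes and 624 CPM in all other cells, and *Id3* was not called (366 CPM in joint cells, against 426 CPM in all other cells). *BMP4* had 3 UMIs in the joint cells, 8.18 CPM against 79.3 CPM in all other cells. *CHRDL1*, a secreted BMP antagonist, was called higher against all other cells (81.8 CPM in joint cells, against 38.9 CPM, log2 ratio 1.07, 0.50 to 1.60) and lower against early chondrocytes (353 CPM, log2 ratio -2.11).

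Of 18 WNT pathway genes tested, 1 was called higher and 6 lower against all other cells, beside 4.49% and 10.0% of all genes tested. The 1 higher call is thus near the share over all genes. The target genes *AXIN2* and *NKD1* had 13.6 and 62.7 CPM in joint cells, against 48.02 and 141 CPM in all other cells, but 14.02 and 83.2 CPM in early chondrocytes, from which they were not called different. The one higher gene was the antagonist *FRZB*, with 229 CPM in joint cells, against 105 CPM in all other cells, 435 CPM in early chondrocytes and 237 CPM in late chondrocytes. *WNT5A* had 600 CPM in joint cells, 969 CPM in early chondrocytes, 219 CPM in late chondrocytes and 521 CPM in all other cells. *TCF7L2*, a nuclear effector, was called lower against early chondrocytes (226 CPM in joint cells, against 835 CPM).

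Transcripts of dividing cells were lower in the joint cells than in all other cells and late chondrocytes, although 80 of the 118 held a UMI of at least 1 G2/M gene and 85 one of an S phase gene. Of 15 G2/M genes tested, 14 were called lower and 0 higher against all other cells, with a median log2 ratio of -1.60, and 13 lower against late chondrocytes. Against early chondrocytes only the cyclin *CCNB3* was called (8.18 CPM in joint cells from 3 UMIs, against 54.3 CPM). The summed level was the lowest of the 18 sub-clusters, at 1347, 1443 and 1103 CPM in the joint cells, against 1729, 2025 and 1472 CPM in early chondrocytes, 4348, 3394 and 3051 CPM in late chondrocytes and 4283, 4054 and 4141 CPM in all other cells. UMIs of at least 3 G2/M genes were found in 20 joint cells (16.9%), against 18.1% of early chondrocytes, 53.2% of late chondrocytes and 50.8% of all other cells. After thinning to 1000 UMIs the shares were 8.47% in joint cells, 9.19% in early and 34.1% in late chondrocytes.

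Of 13 S phase genes tested, 7 were called lower against all other cells and against late chondrocytes, and 0 in either direction against early chondrocytes. The cell cycle scores in the table gave joint cells a median G2M score of 0.267, against 0.665 in early chondrocytes, 0.412 in late chondrocytes and 0.744 in all other cells. The median S score was 0.806 in joint cells, against 0.704 in early chondrocytes, 0.677 in late chondrocytes and 0.659 in all other cells, so the score was higher in joint cells where the summed S phase transcripts were lower (1064 CPM in joint cells, against 2120 CPM in all other cells). How far free RNA enters these scores was not tested.

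Adhesion genes were mixed, with 2 of 18 called higher and 7 lower against all other cells, beside 4.49% and 10.0% of all genes tested. N-cadherin (*CDH2*), which holds condensing mesenchyme together, had 6 UMIs in the joint cells (16.4 CPM, against 67.5 CPM in early chondrocytes, 30.9 CPM in late chondrocytes and 112 CPM in all other cells). *CDH11* had 971 CPM in joint cells, against 1172 CPM in early chondrocytes and 474 CPM in late chondrocytes. Among guidance genes, *SEMA3C* and *SEMA3D* were called lower against early chondrocytes, at 49.1 and 131 CPM in joint cells, against 138 and 282 CPM.

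Summed markers of other cell types were far lower in the joint cells than in the sub-cluster where each list was highest. The markers *KRT19*, *RAMP2*, *KDR*, *ACTA2*, *MYF6*, *GILT* and *LCP1* were at 0 UMIs of 366567. Other members of these lists were present, among them *EPCAM* and the endothelial *CDH5* with 4 UMIs each and the skin gene *COL17A1* with 3. *CDH5* had 10.9 CPM in joint cells, against 20.5 CPM in all other cells. *MYF6* was the only muscle marker with an identifier and had 3.875 CPM in all other cells, so its 0 says little about muscle. The summed endothelial, smooth muscle, leukocyte and erythrocyte lists had 10.9, 24.6, 13.6 and 57.3 CPM in the joint cells, against 43.3, 14.3, 30.4 and 212 CPM in all other cells. All other cells include these cell types themselves, and the highest sub-clusters had 2643, 663, 5961 and 3110 CPM. By these sums the joint cells ranked 3, 4, 8 and 4 of the 18 sub-clusters. In replicate 1 the erythrocyte sum was higher in the joint cells (64.5 CPM) than in all other cells (33.9 CPM). The smooth muscle level came from 9 UMIs of *TAGLN*, which was called higher in all 3 comparisons. For ratios a count of 0 in the joint cells was set to 3 UMIs (8.18 CPM), which is a floor and not an upper limit. The skin list was also higher, at 306 CPM in joint cells (337, 214 and 473 CPM by replicate), against 268 CPM in all other cells, and 102 UMIs of its one chemokine, *CXCL14*, made up nearly the whole.

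*CXCL14* (ENSGALG00000006346) had 337, 190 and 378 CPM in the joint cells, against 68.6, 29.1 and 35.1 CPM in early chondrocytes, 6.77, 18.1 and 12.9 CPM in late chondrocytes and 122.9, 143 and 200 CPM in all other cells. It was called higher against both chondrocyte sub-clusters, with log2 ratios of 2.61 (2.11 to 3.12) and 4.48 (3.81 to 5.20). The skin had 2458 CPM and sub-cluster 9 had 495 CPM. A UMI of *CXCL14* was found in 34 joint cells (28.8%), against 8.38% of early chondrocytes, 4.24% of late chondrocytes and 94.6% of skin cells, and after thinning in 17.8% of joint cells, 3.51% of early chondrocytes, 1.48% of late chondrocytes and 81.5% of skin cells. UMIs of other skin markers were found in 4 joint cells, 2 of which held *CXCL14*. The part of skin RNA in this level was not tested.

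Single joint cells differed in how many of these genes they showed. Of 4 genes (*SULF1*, *CD24*, *Enpp2* and *INHBA*), 51 joint cells held UMIs of all 4, 46 of 3, 18 of 2, 3 of 1 and 0 of none. At least 3 were thus found in 82.2% of the joint cells, against 27.3% of early chondrocytes, 13.8% of late chondrocytes and 1.63% of skin cells, and after thinning in 52.5%, 8.38%, 2.97% and 0.543%. All 4 genes were highest in the joint cells, which were clustered on these same data. The shares therefore describe the sub-cluster and are no separate evidence that it is distinct.

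Per cell, the interzone list took a median of 88.5 UMIs per 10000 in the joint cells (11.6 to 232), against 49.2 in early chondrocytes, 30.2 in late chondrocytes and 17.2 in all other cells. Only 67 of the 6705 other cells exceeded the median of the joint cells, among them 35 early and 14 late chondrocytes. The interzone list includes *SULF1* and *SOX9*, of which *SOX9* was high in the chondrocytes too. The cartilage list took a median of 61.5 UMIs per 10000 in the joint cells (9.80 to 263), against 42.5 in early chondrocytes and 231 in late chondrocytes. Of the joint cells, 87 exceeded the median of the early chondrocytes, but 7 the lower quartile and 3 the median of the late chondrocytes. The cartilage list includes *PTN*, which made up most of the excess of its summed level over the early chondrocytes. Over the 118 joint cells both lists had a Spearman correlation of 0.177, a description over cells of 1 library that share depth. The medians of the interzone list were 86.4, 95.7 and 76.4 UMIs per 10000 in replicates 1, 2 and 3, each above the median of the early chondrocytes.

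**Figure D4:**
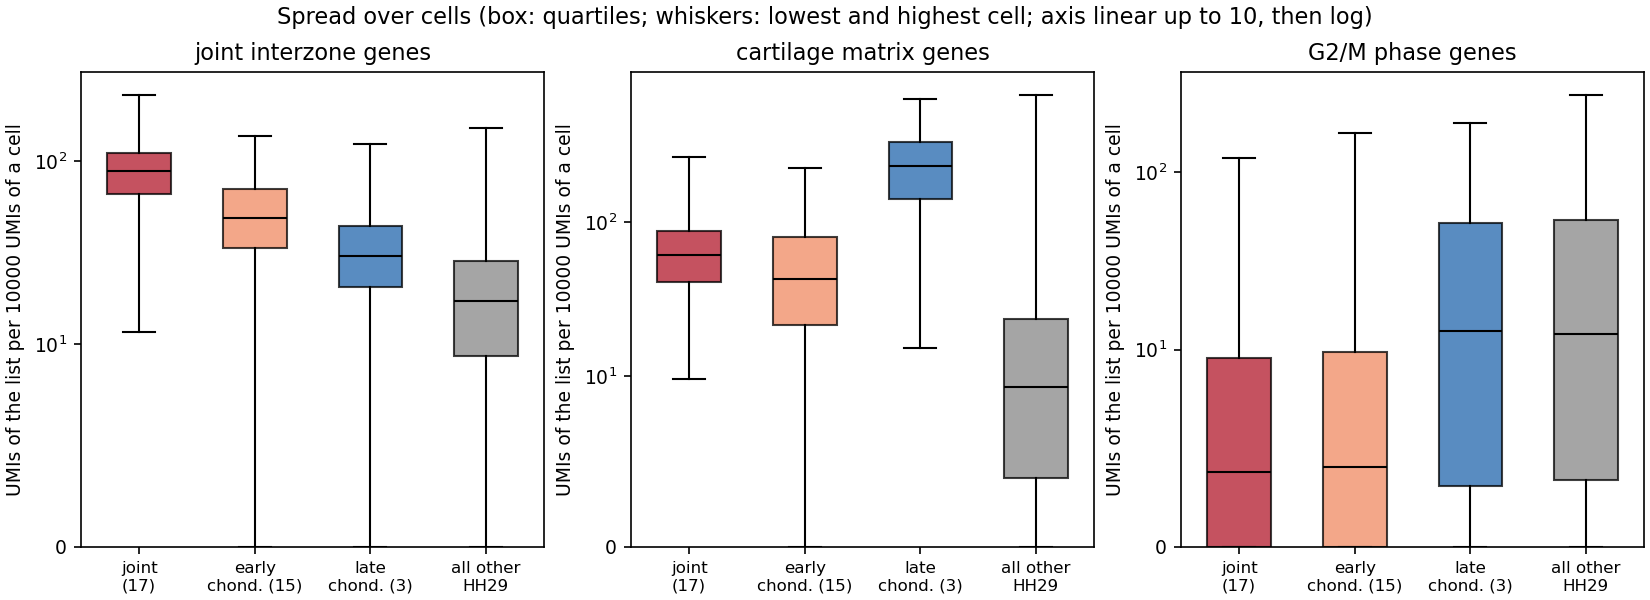
UMIs of the interzone, cartilage matrix and G2/M lists per 10000 UMIs of a cell (axis linear up to 10, then log), in joint cells, early chondrocytes, late chondrocytes and all other HH29 cells; boxes give median and quartiles, whiskers the lowest and highest cell. The joint cells have the highest interzone median (88.5), a cartilage median (61.5) near that of early chondrocytes (42.5) and under that of late chondrocytes (231), and a G2/M median of 3.78, against 12.3 in all other cells.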

How the data were processed

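The HH29 library of dissected digits 3 and 4 was measured by Drop-Seq in 3 technical replicates, with no biological replicate. The deposited values are unnormalized UMI counts, which the authors obtained by the DropSeq pipeline (version 1) on Gallus_gallus 5.0 per the study's methods, and, for each cell, the clusters they computed with Seurat 2.3.2 and S and G2M cell cycle scores. Their stated filters would remove 17 further HH29 cells and no joint cell, and were not applied. No doublets were removed. The members and gene lists were chosen with earlier results of these data known. Names come from the marker and module tables of the study and cover 3116 of 10804 genes. Of 450 listed symbols, 238 had an identifier.

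UMIs were summed over cells, without normalization beyond CPM, and ratios carry exact 95% intervals from the conditional binomial distribution. A count of 0 was set to 3 UMIs. Genes were named by list, or as the 15 largest and 10 smallest ratios to all other cells and the 10 largest and 10 smallest ratios to each chondrocyte sub-cluster, among called genes with at least 30 UMIs. The ratios and their intervals were tested on simulated counts. These held no technical replicates and left out genes with few expected UMIs in the joint cells, so the rule for calls was not tested. Versions were scipy 1.17.1, numpy 2.4.6, matplotlib 3.10.9 and pandas 2.3.3 under Python 3.11.15.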

Additional observations from a re-analysis of the deposited data

How the results depend on the processing

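The 6 counts of called genes (324 higher and 722 lower against all other HH29 cells, 283 and 383 against early chondrocytes, 388 and 553 against late chondrocytes) stayed within 1.5 times under the stated cell filters, without cells over 2 times the median UMI number, as means of replicates or of cells, without mitochondrial and ribosomal protein genes in the total, and with no filter on level. With limb mesenchyme alone as the other cells, a setting that bears on the first pair only, they were 335 and 702. With a filter of 30 CPM they were 147 and 360, 108 and 162, and 170 and 289. At 1.5-fold they were 591 and 1284, 563 and 741, and 703 and 1076, and at 3-fold 140 and 346, 114 and 150, and 163 and 237. Without the demand on replicates, an alternative chosen after seeing the data, they were 505 higher against early and 624 higher against late chondrocytes.

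Leaving out 1 technical replicate, which also leaves fewer to meet the demand on direction, gave 391 to 437 and 833 to 897 genes against all other cells, 422 to 483 and 558 to 595 against early chondrocytes, and 525 to 559 and 699 to 758 against late chondrocytes. Without replicate 1 or replicate 2, 463 and 483 genes were higher than in early chondrocytes, and without replicate 2, 595 were lower. The share of the joint cells was 1.68 to 1.77%.

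For 76 genes of the lists and rankings, 2128 alternative ratios were computed. None changed the sign of a called gene, but a call already demands the same direction in all 3 replicates. Leaving out or averaging replicates could therefore hardly reverse it, so the result carries little weight for those settings. Of the alternative ratios, 287 moved by more than 1 SD over the replicates or had no SD because a replicate was at 0. The largest moves were those of *MXRA5*, whose 1 UMI in the joint cells lies in replicate 2. Without that replicate its count was set to 3 UMIs, and its log2 ratio was -1.60 to all other cells, in place of -4.11. *NKX3-2* depends on replicate 2 too, without which its log2 ratio to late chondrocytes was -4.72 in place of -2.62. Thinning to 1000 UMIs lowered the shares of joint cells with a UMI to 85.6% for *CD24* and 35.6% for *INHBA*, against 96.6% and 57.6%.

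No paired analysis was possible because each stage is 1 library and no result comes from a test. Of the genes of the joint cells, those with fewer than about 30 UMIs are known only roughly, and names are missing for most genes.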

Other observations

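The skeletal sub-clusters of the other stages were made on another platform and from other dissections, so their levels are given side by side with no comparison. At HH29 the joint cells had 859 CPM of *Enpp2* and 685 CPM of *MAP1LC3C*. Sub-cluster 1 of HH31 (354 cells) had 220 CPM (192 to 252) and 182 CPM (156 to 211), the highest of 11 sub-clusters there, and sub-cluster 2 of HH31 (650 cells) had 61.3 and 85.7 CPM. Sub-cluster 4 of HH25 (874 cells) had 21.9 CPM of *Enpp2* and 8.21 CPM of *MAP1LC3C*.

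*TIMP4*, at 221 CPM in the HH29 joint cells, had 1 UMI (1.03 CPM) in the first and 6 UMIs (3.47 CPM) in the other of these HH31 sub-clusters. *NOG*, at 51.8 CPM in the HH29 joint cells, had 102 CPM in sub-cluster 1 of HH31, where it was highest, and 5.79 CPM in the other. *SULF1*, at 2376 CPM in the HH29 joint cells, had 6 UMIs (3.28 CPM) in sub-cluster 4 of HH25 and was highest there in sub-cluster 8 (16.1 CPM). *CD24* was at its highest in sub-cluster 4 of HH25 (456 CPM) and sub-cluster 1 of HH31 (814 CPM).

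Early response genes were high in the joint cells only in part. Of 7 tested, 2 were called higher against all other cells, beside 4.49% of all genes tested. Against early chondrocytes 3 were called higher, and against late chondrocytes 4 higher and 1 lower. *DUSP1*, a phosphatase that dampens MAP kinase signals, had 136, 104 and 315 CPM in the joint cells, against 64.0, 64.8 and 74.0 CPM in early chondrocytes, 23.0, 39.0 and 33.6 CPM in late chondrocytes and 38.3, 42.8 and 54.97 CPM in all other cells. *FOS* was not called (87.3 CPM in joint cells, against 95.6 CPM in all other cells).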
